A study of Mus musculus with 9 samples.

Results

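The EGF family ligands Egf, Hbegf, Tgfa, Areg, Ereg and Btc and the receptors Egfr, Erbb2, Erbb3 and Erbb4 were followed in obstructed, released and control mouse kidneys. These 10 genes were found through the RefSeq accessions of their probes, and they had 21 of the 41174 probes on the array. All mice were males aged 10 weeks of the ISAM line on a mixed strain background, with the genotype Epo–/–::3.3K-Epo3'-Tg458, so the controls also lacked the normal Epo gene and carried the transgene. ISAM mice make too little erythropoietin as adults and are anaemic. In the Clip arm (3 kidneys) a vascular clip had closed the left ureter for 2 days. In the ClipR-14 arm (3 kidneys) the same 2 days of closure were followed by 12 days without the clip. The control arm held 2 kidneys of sham-treated mice and 1 of an untreated mouse, with no collection time in the labels.

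Whole-kidney RNA from the left side was hybridised to 1 single-colour Agilent array for each kidney. The labels number the kidneys of an arm as replicates without stating that each came from a separate mouse, and p-values measure the spread between these samples only. Depth was alike among the 9 arrays, with 75th percentile signals of 320 to 439 and 52.0% to 57.5% of probes well above background. The small number of arrays limits the precision. A slide held 1 array from every arm, and there were 3 slides. Of the markers of the labelled tissue, 6 of 6 proximal tubule, 13 of 13 thick limb and distal tubule and 5 of 5 collecting duct genes passed the filter on dim probes. As 13016 of the 18217 genes with a symbol also passed, this shows only that these markers were measured.

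EGF family ligands are made as membrane-bound precursors, and metalloproteases cut them free. Egf, Tgfa, Areg, Hbegf, Ereg and Btc bind Egfr, and Hbegf, Ereg and Btc also bind Erbb4. Erbb2 has no known ligand of its own and pairs with the other receptors, and Erbb3 has a very weak kinase and signals through its partners. In the kidney most Egf comes from the thick ascending limb and the distal convoluted tubule and leaves in the urine. Egfr on tubule cells takes part in their regrowth after injury and, in the distal tubule, in magnesium uptake through the channel Trpm6.

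The promoter windows below belong to the 3 members whose values stand out in the results: Egf, the ligand with the largest fall, Areg, a ligand well above background on 1 Clip array only, and Egfr, the receptor called higher in Clip kidneys. Each is the 250 bases before the start of the gene in RefSeq (GRCm38.p6), written 5′ to 3′ on the strand of the gene. The Egf window is chr3:129755323-129755572 on the minus strand, the Areg window chr5:91139349-91139598 on the plus strand and the Egfr window chr11:16751953-16752202 on the plus strand. Capitals mark matches to the 4 motifs searched on both strands.
Egf: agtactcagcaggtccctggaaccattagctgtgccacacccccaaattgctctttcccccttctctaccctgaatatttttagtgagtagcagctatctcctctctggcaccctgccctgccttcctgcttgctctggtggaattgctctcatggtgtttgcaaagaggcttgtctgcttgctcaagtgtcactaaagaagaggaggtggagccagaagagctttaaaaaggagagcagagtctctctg
Areg: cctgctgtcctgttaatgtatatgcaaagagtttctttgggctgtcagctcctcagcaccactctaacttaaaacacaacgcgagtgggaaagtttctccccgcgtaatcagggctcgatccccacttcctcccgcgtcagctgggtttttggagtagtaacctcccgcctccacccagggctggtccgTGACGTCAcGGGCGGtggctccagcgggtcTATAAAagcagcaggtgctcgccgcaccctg
Egfr: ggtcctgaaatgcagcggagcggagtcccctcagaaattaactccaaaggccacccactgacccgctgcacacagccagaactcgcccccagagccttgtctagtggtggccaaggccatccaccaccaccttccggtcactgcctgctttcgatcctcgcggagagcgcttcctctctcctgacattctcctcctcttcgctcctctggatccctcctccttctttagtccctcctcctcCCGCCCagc

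The motifs were the TATA box TATAAA, the GC box GGGCGG, the AP-1 site TGANTCA and the cyclic AMP response element TGACGTCA, and no 2 matches overlapped. They occur in 12.4%, 32.7%, 6.75% and 1.55% of the 32851 RefSeq windows of this length. Areg had TGACGTCA 61 bases, GGGCGG 52 bases and TATAAA 31 bases before its start. The Egfr window held 1 GC box match, on the other strand and 9 bases before the start. In the Egf window none of the 4 motifs had a match. Windows of 7 of the 10 members were searched. The window of Hbegf, on chromosome 18, was left out of the search, and Ereg and Erbb3 had no window.

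Levels are given as log2 of the intensity over the 75th percentile of its array, so that 0 is that percentile. They compare arrays for 1 probe and not 1 gene with another. Of the 10 members, 7 passed the filter, which asked for a probe that 3 or more of the 9 arrays showed well above background. Egf, Hbegf, Btc, Egfr, Erbb2 and Erbb3 were well above background on all 9 arrays and Erbb4 on 5. Tgfa, Areg and Ereg did not pass. A change was called when its limma p-value, adjusted by the Benjamini-Hochberg method over all 17740 genes tested, was under 0.05.

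After 2 days of obstruction Egf and Hbegf fell and Egfr rose, while Btc, Erbb2, Erbb3 and Erbb4 did not pass. That is 3 of 7 tested members, where 48.9% of all genes tested passed, 21.4% as rises and 27.5% as falls. The median change of the 7 was -0.19, against -0.09 over all genes. In released kidneys 0 of 7 members differed from control past the threshold (limma), where 1.83% of all genes did (1.46% higher, 0.372% lower). There 3 members, Egf, Hbegf and Erbb4, had an unadjusted p under 0.05, as had 3811 of the 17740 genes tested. Egf was higher and Egfr lower in ClipR-14 than in Clip kidneys, which is 2 of 7, where 41% of all genes passed (23.6% higher, 17.4% lower). The arms did not overlap for 3 members in Clip minus control (58.6% of all genes), 2 in ClipR-14 minus control (27.2%) and 3 in ClipR-14 minus Clip (54.8%). The shares of members called are read against these backgrounds, and with 7 genes they are not set apart from them. The comparisons with control share the 3 control arrays, and both comparisons with Clip share the 3 Clip arrays.

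**Figure D1:**
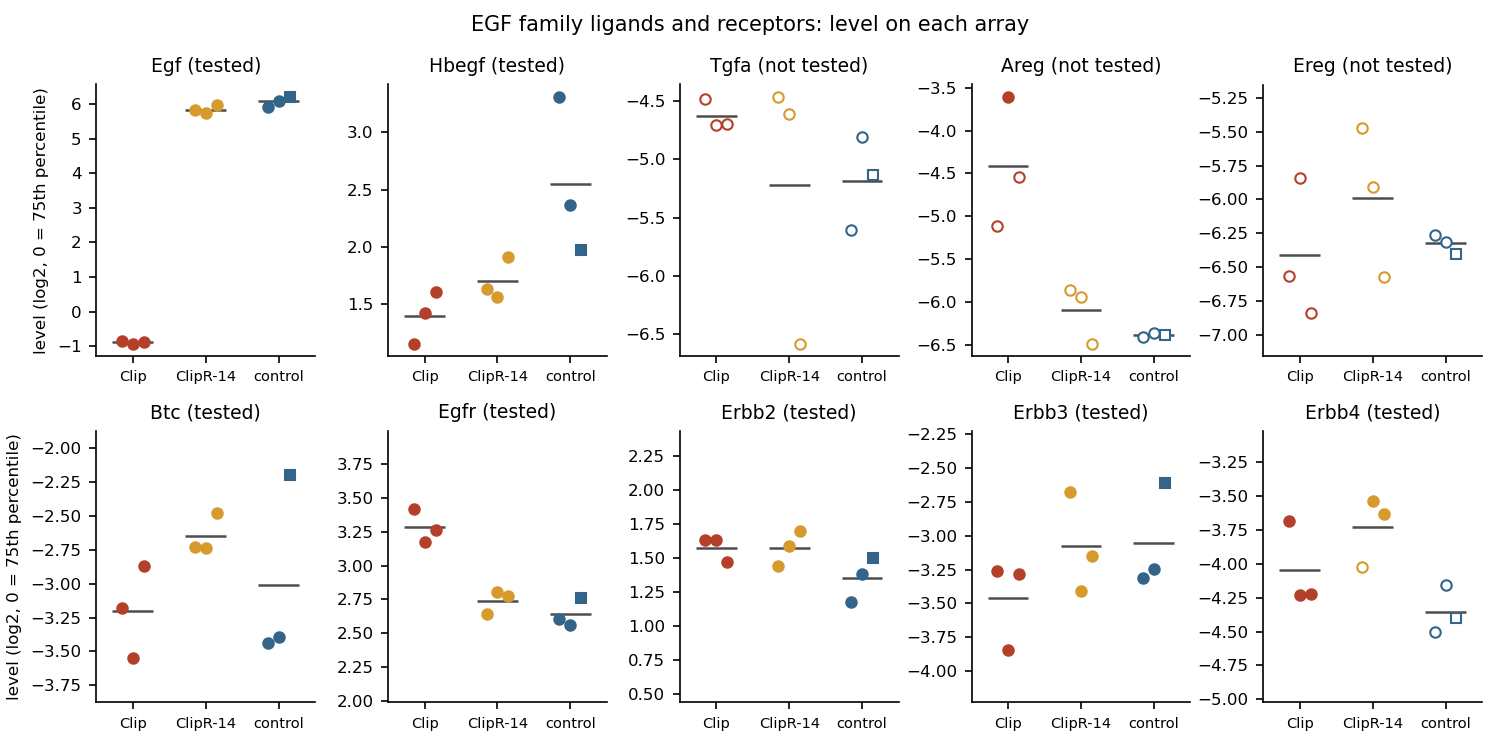
Level of each EGF family member (log2 of intensity over the array's 75th percentile) on each of the 9 arrays, with Clip, ClipR-14 and control kidneys from left to right. Bars are arm means, squares are the untreated kidney and open points are not well above background; each panel has its own vertical range, and Egf is between -0.93 and -0.85 in Clip kidneys and at 5.74 or more elsewhere.

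Egf, the ligand after which the family is named, had levels of -0.85, -0.93 and -0.87 in Clip kidneys and 5.82, 5.74 and 5.97 in ClipR-14 kidneys, against 5.93 and 6.11 in sham kidneys and 6.22 in the untreated kidney. The 3 Clip arrays lay far below all 6 others, and the ClipR-14 and control arms overlapped. Each array read Egf from 10 spots, all well above background, so the low Clip level was itself measured. The unscaled intensities were 215, 221 and 240 in Clip kidneys and 20521, 20933 and 26668 in ClipR-14 kidneys, against 19558 and 22091 in sham kidneys and 30825 in the untreated kidney. Egf fell 125-fold in Clip kidneys against control (log2 change -6.97 ± 0.10, SE, n = 3 per arm; limma, adjusted p = 1.90e-08). Of the 15464 genes whose probe was well above background on every Clip and control array, 0 had a larger fitted fall. On the 3 slides taken alone the Egf change was -6.78, -7.04 and -7.09, and it ran from -7.05 to -6.36 over the alternative settings.

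In released kidneys Egf was 106-fold higher than in Clip kidneys (6.73 ± 0.10; limma, adjusted p = 2.56e-08). Against control it stood at -0.24 ± 0.10 (95% interval -0.48 to -0.00063; adjusted p = 0.232). The slides gave -0.11, -0.37 and -0.24, so the ClipR-14 array was the lower of its pair on each slide. In whole-kidney RNA, fewer cells of a type and less RNA per cell cannot be told apart.

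Genes of the segments that make Egf were set beside it. Of the 13 thick limb and distal tubule genes, 11 fell in Clip kidneys, 0 rose and 2 did not pass (median change -1.54). Falls were called for 27.5% of all genes tested and rises for 21.4%. The mean level of the 13 was -0.12 to 0.07 in Clip kidneys and 2.28 to 2.40 in ClipR-14 kidneys, against 1.99 to 2.23 in control kidneys. Pvalb, a calcium-binding protein of the distal convoluted tubule, and Tmem207 fell to levels not well above background, by at least 17.8-fold and at least 20.0-fold. Such a bound sets the dimmer arm at the lowest signal well above background on each array, or at the probe's own where higher, so their falls cannot be ranked against that of Egf. Calb1, the calcium buffer of the distal tubule, fell by 3.65 ± 0.15 on the log2 scale and Slc12a3, the thiazide-sensitive cotransporter, by 2.24 ± 0.16. Umod, the main secreted protein of the thick limb, had levels of 7.06, 7.37 and 7.14 in Clip kidneys and 8.08, 8.08 and 8.17 in ClipR-14 kidneys, against 8.0 and 8.11 in sham kidneys and 7.81 in the untreated kidney. Its fall was -0.78 ± 0.12 (limma, adjusted p = 0.000711; 0.0657 with quantile normalization). The part of these segments' RNA in the Egf result was not tested.

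Trpm6, the magnesium channel that acts downstream of Egf, had levels of -3.27, -3.13 and -3.47 in Clip kidneys and -1.91, -1.89 and -2.18 in ClipR-14 kidneys, against -3.03 and -2.63 in sham kidneys and -2.67 in the untreated kidney. The arms did not overlap in any comparison. Trpm6 fell in Clip kidneys (-0.52 ± 0.15, limma, adjusted p = 0.0199), a direction that normexp background correction turned (0.27, adjusted p = 0.491). The call was also lost without the second sham (0.0693), the untreated (0.0573) or the third Clip array (0.0650). In released kidneys it was higher than in control kidneys (0.78 ± 0.15, adjusted p = 0.0451), and was the only one of the 13 to pass there. That call was lost in 13 of 18 alternatives (adjusted p of 0.0352 to 0.932 over all).

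**Figure D2:**
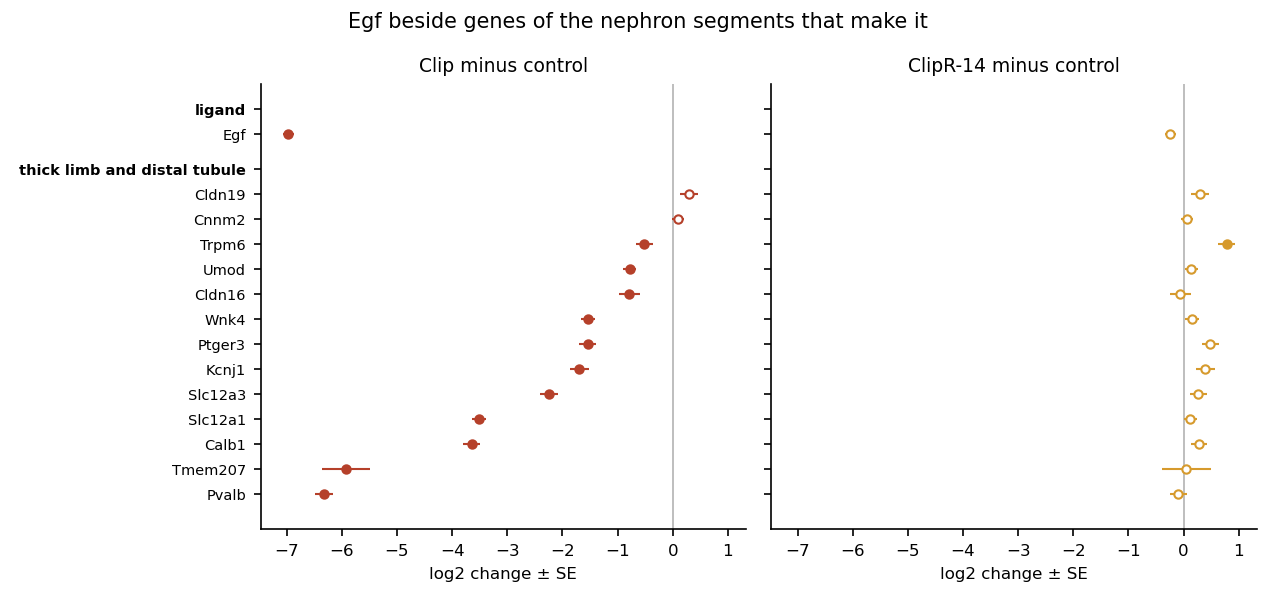
Change of Egf and of 13 thick limb and distal tubule genes on the log2 scale (points, with the standard error of the fit as bars) in Clip minus control and ClipR-14 minus control; filled points passed the threshold. Pvalb and Tmem207 are drawn at fitted values, although their Clip levels were not well above background. Egf lies at -6.97 on the left and -0.24 on the right, and the list's members lie between -6.33 and 0.30 on the left and between -0.09 and 0.78 on the right.

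By the pattern over the 9 arrays, the genes most like Egf were Pvalb (Pearson r = 0.998), Lnx1 (0.997), Cpt1b (0.997), Eci3 (0.996) and Mfsd4a (0.996). The points share the 3 arms, so these values mostly say that the Clip arrays were low and the other 6 alike. The size of the change differed widely among them, with Clip minus control at -1.74 for Lnx1, -3.01 for Cpt1b, -2.70 for Eci3 and -3.59 for Mfsd4a.

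Hbegf, which binds Egfr and Erbb4 and is shed from the cell surface, had levels of 1.16, 1.43 and 1.60 in Clip kidneys and 1.64, 1.56 and 1.91 in ClipR-14 kidneys, against 3.31 and 2.37 in sham kidneys and 1.97 in the untreated kidney. Both clipped arms lay below the control arm without overlap, and the first sham kidney was well above the other control kidneys. That kidney was also the highest of the 9 for the 3 adipocyte genes tested, with a mean level of -0.50, against -0.99 or lower on the other arrays; their part in the Hbegf result was not tested. Hbegf fell 2.23-fold in Clip kidneys (-1.15 ± 0.31, limma, adjusted p = 0.0135), a call kept in all 18 alternatives (adjusted p of 0.00392 to 0.0493). The slides taken alone gave -2.15, -0.94 and -0.37. In released kidneys the change from control was -0.85 ± 0.31 (adjusted p = 0.166), with the arms apart, as they were for 27.2% of all genes. ClipR-14 minus Clip was 0.31 ± 0.31 (95% interval -0.39 to 1.01; adjusted p = 0.457). The genes most like Hbegf over the 9 arrays were Phkg2 (r = 0.975), Bcas3 (0.961) and Cers6 (0.956).

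Areg, a ligand that Egfr binds with low affinity, was read from 1 spot and lay well above background on the second Clip array only. Its levels were -5.11, -3.61 and -4.54 in Clip kidneys and -5.86, -5.94 and -6.49 in ClipR-14 kidneys, against -6.41 and -6.37 in sham kidneys and -6.39 in the untreated kidney. The Clip arm did not overlap the others. The fit without the filter on dim probes gave adjusted p = 0.00384 for Clip minus control and 0.0102 for ClipR-14 minus Clip (limma). These p-values rest mostly on levels not well above background and are not taken as support for a change. That fit also called 10515 of 32282 genes higher in ClipR-14 than in Clip kidneys. No size of change is given, since 8 of 9 levels carry only a bound: the lowest signal counted as well above background lay at -4.36 to -4.23 on the control arrays.

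Btc, a ligand of Egfr and Erbb4, had levels of -3.18, -3.55 and -2.87 in Clip kidneys and -2.73, -2.74 and -2.48 in ClipR-14 kidneys, against -3.44 and -3.40 in sham kidneys and -2.20 in the untreated kidney. The untreated kidney was the highest of the 9, far from both sham kidneys. It was also the highest for the adrenal gene Hsd3b1 (0.38, against -3.17 or lower on the other arrays), whose part in the Btc values was not tested. Star, the other adrenal gene tested, was highest on the third ClipR-14 array (-3.04), against -3.21 in the untreated kidney. Neither comparison with control passed (Clip -0.19 ± 0.32, adjusted p = 0.659; ClipR-14 0.36 ± 0.32, adjusted p = 0.548; limma). ClipR-14 minus Clip was 0.55 ± 0.32 (adjusted p = 0.211), and passed without the untreated array (adjusted p = 0.0354). A second Btc probe was above background on 1 array. Tgfa, with 2 probes, and Ereg, with 1, stayed at background on all 9 arrays, and their changes are left out.

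Egfr, the receptor of most of these ligands, had levels of 3.42, 3.17 and 3.26 in Clip kidneys and 2.64, 2.80 and 2.77 in ClipR-14 kidneys, against 2.61 and 2.56 in sham kidneys and 2.76 in the untreated kidney. All 3 Clip arrays lay above the other 6, which overlapped. Egfr rose 1.56-fold in Clip kidneys (0.64 ± 0.10, limma, adjusted p = 0.00102), and 65.1% of all genes had a smaller change in either direction. It was 1.46-fold lower in ClipR-14 than in Clip kidneys (-0.55 ± 0.10, adjusted p = 0.00318) and 0.10 ± 0.10 from control (95% interval -0.14 to 0.33; adjusted p = 0.620). With normexp background correction the rise was 0.41 (adjusted p = 0.0944) and the difference between ClipR-14 and Clip -0.34 (adjusted p = 0.178), so neither passed.

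The 4 Egfr probes carry the accessions of different Egfr transcripts, and all were well above background on all 9 arrays. NM_207655 had 10 spots in the probe described above and 1 spot in another, and NM_007912 likewise had a probe of 10 spots and one of 1 spot. Clip minus control was 0.64 and 0.80 for the NM_207655 probes and 0.35 and 0.23 for the NM_007912 probes. ClipR-14 minus control was 0.10 and -0.04 for NM_207655 and -0.14 and -0.23 for NM_007912, so the probes differed in sign there and not in Clip kidneys. For the 1-spot NM_007912 probe the Clip and control arms overlapped, with the second Clip array at 0.90 and the first sham array at 0.92. The probes other than the first were not tested. Within arrays the level of the first 10-spot probe minus that of the other was 1.91, 1.69 and 1.70 in Clip kidneys and 1.52, 1.79 and 1.79 in ClipR-14 kidneys, against 1.29 and 1.40 in sham kidneys and 1.71 in the untreated kidney. The arms overlapped. The mean difference was 0.30 higher in Clip than in control kidneys (two-sided exact permutation test, p = 0.3; 0.45 after adjustment over 3 comparisons), where 3 arrays against 3 cannot go below 0.1. This test could not have passed the threshold, so it leaves untested whether the transcripts differ in response. The genes most like Egfr were Pdpn (r = 0.985), Cnn3 (0.981) and Snhg7 (0.980).

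**Figure D3:**
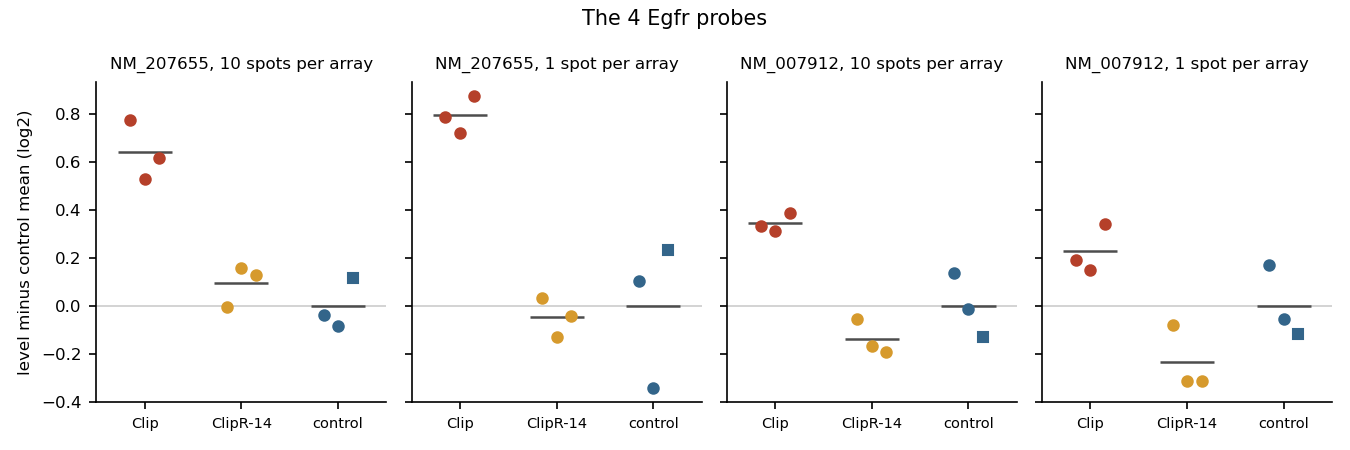
Level of the 4 Egfr probes relative to the probe's control mean (log2) on each array, with Clip, ClipR-14 and control kidneys from left to right; bars are arm means and squares the untreated kidney. All Clip points lie above the mean of the control points, which is 0 on this axis, by an average of 0.64, 0.80, 0.35 and 0.23 from left to right. In the last panel the Clip and control points overlap.

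Erbb2, the partner receptor without a ligand, had levels of 1.63, 1.63 and 1.47 in Clip kidneys and 1.44, 1.59 and 1.70 in ClipR-14 kidneys, against 1.17 and 1.38 in sham kidneys and 1.5 in the untreated kidney. The arms overlapped. The changes from control were 0.22 ± 0.12 in both Clip (95% interval -0.04 to 0.49; limma, adjusted p = 0.144) and ClipR-14 kidneys (-0.04 to 0.49; adjusted p = 0.311). With quantile normalization the first passed (0.35, adjusted p = 0.0453). The second Erbb2 probe gave 0.26 and 0.29.

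Erbb3 and Erbb4, the receptors of the neuregulins, were dim. Erbb3 had levels of -3.26, -3.84 and -3.28 in Clip kidneys and -2.68, -3.41 and -3.15 in ClipR-14 kidneys, against -3.31 and -3.25 in sham kidneys and -2.61 in the untreated kidney. Its arms overlapped, and no comparison passed (Clip minus control -0.41 ± 0.26, limma, adjusted p = 0.230). The 3 other Erbb3 probes were above background on 1 to 3 arrays. For Erbb4 the levels were -3.69, -4.23 and -4.23 in Clip kidneys and -4.02, -3.54 and -3.63 in ClipR-14 kidneys, against -4.50 and -4.16 in sham kidneys and -4.40 in the untreated kidney.

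Erbb4 was well above background on 3 Clip and 2 ClipR-14 arrays and on 0 control arrays. The cut differed among arrays: Clip arrays at -4.23 were counted, while the second sham (-4.16) and first ClipR-14 array (-4.02) were not. The lowest signal counted lay at -4.68 to -4.56 on Clip, -4.29 to -3.85 on ClipR-14 and -4.36 to -4.23 on control arrays. These counts therefore do not rank the arms. ClipR-14 kidneys lay above control without overlap, at a fitted 0.62 ± 0.19 that did not pass (limma, adjusted p = 0.121) and was 0.11 with normexp, and the Clip arm overlapped control (0.30 ± 0.19, adjusted p = 0.220). With control at background, no fold is given. Another Erbb4 probe was above background on the second ClipR-14 array alone, at -2.56, and the remaining one on no array. By their pattern over the 9 arrays, the genes most like the dimmer members were Zfp708 (r = 0.950), Zfp292 (0.946) and P2ry14 (0.940) for Btc, Mavs (0.961), Tango6 (0.956) and Gtf2b (0.934) for Erbb3 and Ggt5 (0.930), Defb1 (0.918) and Cds2 (0.906) for Erbb4. For Erbb2 they were Fance (0.964), Sppl3 (0.943) and Epb41l4a (0.942). Like those named for Hbegf and Egfr, they were picked as the highest among 13016 genes over 9 arrays. Their values are thus high by selection, and shared regulation was not tested.

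Ligands outside the 10 were taken from a list of neuregulins and epigen. Of the 3 tested out of 5 listed, 1 rose (Nrg1), 1 fell (Nrg4) and 1 did not pass (Epgn) in Clip kidneys. Rises were called for 21.4% of all genes tested and falls for 27.5%. Nrg1, a ligand of Erbb3 and Erbb4, had levels of -0.14, -0.55 and -0.28 in Clip kidneys and -2.57, -2.77 and -3.12 in ClipR-14 kidneys, against -3.12 and -2.51 in sham kidneys and -2.99 in the untreated kidney. The Clip arm stood apart and the others overlapped. Nrg1 rose 5.85-fold in Clip kidneys (2.55 ± 0.20, limma, adjusted p = 2.54e-05), was 5.64-fold lower in ClipR-14 than in Clip kidneys (-2.50 ± 0.20, adjusted p = 4.36e-05) and lay 0.05 ± 0.20 from control after release (adjusted p = 0.901). Nrg4, a ligand of Erbb4, fell 2.24-fold (-1.16 ± 0.27, adjusted p = 0.00724), but not with normexp (-0.34, adjusted p = 0.259). It stood at -0.64 ± 0.27 after release (adjusted p = 0.221). Epgn, an Egfr ligand, was at -0.56 ± 0.82 in Clip kidneys (adjusted p = 0.598).

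Markers of other cells moved in the same kidneys, where 21.4% of all genes tested rose and 27.5% fell in Clip minus control. All 5 fibroblast and pericyte genes rose in Clip kidneys, with a mean level of 3.60 to 3.90 in Clip and 2.56 to 3.0 in ClipR-14 kidneys, against 1.56 to 1.91 in control kidneys. Of the 6 macrophage and monocyte genes tested 5 rose, with a mean level of -1.15 to -0.68 in Clip and -2.22 to -2.09 in ClipR-14 kidneys, against -3.25 to -2.84 in control kidneys. Among these genes, Itgam passed the filter on dim probes through the 3 Clip arrays alone, so its call among the 5 is no separate support for a rise. Proximal tubule genes fell in 5 of 6 cases, with a mean level of 4.09 to 4.51 in Clip and 5.66 to 5.98 in ClipR-14 kidneys, against 5.60 to 6.06 in control kidneys. Collecting duct genes fell in 4 of 5 cases and podocyte genes in 3 of 5, and 3 of 5 T and NK cell genes rose. Of 5 endothelial genes 1 rose and 1 fell. Of the 6 urothelium genes 1 rose, the basal keratin Krt5, and 0 fell. The part of these cells in the changes of Egfr, Nrg1 and Hbegf was not tested.

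Genes that free the ligands went both ways in Clip kidneys, with 3 of 8 tested (of 11 listed) higher, 2 lower and 3 not passed (median change 0.25). Of all genes tested, 48.9% were called in Clip kidneys (21.4% higher, 27.5% lower) and 1.83% in released kidneys. Rhbdf2, which carries the sheddase Adam17 to the cell surface, rose 2.20-fold (1.14 ± 0.17, limma, adjusted p = 0.000620). Rhbdl2, a membrane protease that can cut Egf, rose by 1.44 ± 0.18 on the log2 scale, which is at least 1.82-fold because no control array showed it above background. It passed the filter on dim probes through the 3 Clip arrays alone. Its call, which is among the 3 counted as higher, is thus no separate support for the rise. Cd9, a membrane partner of uncut Hbegf, rose 1.89-fold (0.92 ± 0.16). Timp3, an inhibitor of Adam17, fell 2.10-fold (-1.07 ± 0.17, adjusted p = 0.00113). Adam17 itself did not pass (0.31 ± 0.17, adjusted p = 0.164). Adam9, another sheddase, fell by 0.35 ± 0.09 on the log2 scale, a call lost with quantile normalization (adjusted p = 0.450) and without the second sham array (0.0550). Against control, 0 of the 8 passed in released kidneys, with Rhbdf2 at 0.06 ± 0.17 and Timp3 at -0.24 ± 0.17. An unadjusted p under 0.05 was reached there by 2 of them, Rhbdf1 and Rhbdl2, and by 3811 of the 17740 genes tested.

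Of 11 tested feedback inhibitors (of 15 listed) of the receptor and of ERK, the kinase at the end of the Ras pathway, 5 fell in Clip kidneys, 1 rose and 5 did not pass (median change -0.21). The shares over all genes were 27.5% lower and 21.4% higher in Clip kidneys, and 1.83% called in released kidneys. Errfi1, whose product binds and blocks the Egfr kinase, had levels of 4.27, 4.59 and 4.39 in Clip kidneys and 4.76, 5.44 and 5.53 in ClipR-14 kidneys, against 6.02 and 5.90 in sham kidneys and 5.85 in the untreated kidney. All 3 arms were apart. Errfi1 fell 2.84-fold (-1.5 ± 0.20, limma, adjusted p = 0.000343) and was higher in ClipR-14 than in Clip kidneys (0.82 ± 0.20, adjusted p = 0.0103), a call that quantile normalization ended (adjusted p = 0.0564). The ERK phosphatases Dusp4 (-1.28 ± 0.17) and Dusp6 (-1.14 ± 0.21) also fell, Dusp4 not with normexp (-0.44, adjusted p = 0.121). Lrig1, which promotes the breakdown of the receptors, fell by 0.53 ± 0.18 on the log2 scale (adjusted p = 0.0360), and this was lost in 8 of 18 alternatives. Lrig3, of the same family, fell by 0.69 ± 0.10. Spry1, an inhibitor of Ras signalling, rose by 0.33 ± 0.11 (adjusted p = 0.0292; lost in 7 of 18). In released kidneys 0 of the 11 passed against control (limma), with Errfi1 at -0.68 ± 0.20 (adjusted p = 0.105) and Dusp4 at -0.75 ± 0.17 (adjusted p = 0.0655). Of the 11, 4 had an unadjusted p under 0.05 there, as had 3811 of the 17740 genes tested.

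Among 9 genes that ERK signalling induces in many cells, 3 rose, 2 fell and 4 did not pass in Clip kidneys (median change 0.32). Over all genes tested, 21.4% rose and 27.5% fell in Clip kidneys, and 1.83% were called in released kidneys. Fosl1, an AP-1 subunit, rose by 3.28 ± 0.42 on the log2 scale (limma, adjusted p = 0.000298), which is at least 2.91-fold because no control array showed it above background. It passed the filter on dim probes through the 3 Clip arrays alone. Its p-value and its place among the 3 counted rises are thus no separate support for the rise. Myc, a growth regulator, rose 3.50-fold (1.81 ± 0.31, adjusted p = 0.00149). The ETS factors went apart: Etv4 rose (fitted change 1.35 ± 0.32, with 1 of 3 control arrays well above background), while Etv5 fell 2.14-fold (-1.10 ± 0.23), with the opposite sign under normexp (0.28, adjusted p = 0.510). Ier3, an early response gene, fell 2.40-fold (-1.26 ± 0.38, adjusted p = 0.0223), a call lost without the first sham (0.0661), the second sham (0.0746) or the first Clip array (0.0658). The immediate early genes Fos (-0.13 ± 0.33) and Egr1 (-0.67 ± 0.29) did not pass. In ClipR-14 minus control 0 of the 9 passed (limma), and 1, Fos, had an unadjusted p under 0.05 (0.79 ± 0.33, adjusted p = 0.214). So had 3811 of the 17740 genes tested.

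The 25 adaptors and kinases of the Ras, ERK and PI3K pathways were spread around 0 in Clip kidneys, with 5 higher, 8 lower and 12 not passed (median change -0.06). These counts are close to the 21.4% higher and 27.5% lower of all genes tested. In released kidneys 1.83% of all genes were called. The largest rises were those of Pik3r1, the regulatory PI3K subunit (1.01 ± 0.13), Akt1, a kinase downstream of PI3K (0.60 ± 0.08), and the receptor adaptor Shc1 (0.52 ± 0.08). The largest falls were those of the catalytic PI3K subunit Pik3cb (-0.74 ± 0.11), the Ras activator Sos2 (-0.74 ± 0.17) and the docking protein Gab1 (-0.73 ± 0.15). With normexp the calls of Akt1 (0.39, adjusted p = 0.0746), Pik3cb (-0.36, 0.104) and Gab1 (-0.14, 0.603) were lost (limma). Grb7, an adaptor that binds Erbb2, fell in Clip kidneys (-0.48 ± 0.14, limma, adjusted p = 0.0195). It was higher in ClipR-14 than in Clip kidneys (0.63 ± 0.14, adjusted p = 0.00690) and lay 0.15 ± 0.14 from control after release (adjusted p = 0.559). In released kidneys 0 of the 25 passed against control (limma). There 3 had an unadjusted p under 0.05 (Sos1, Pik3r1 and Akt2), as had 3811 of the 17740 genes tested.

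**Figure D4:**
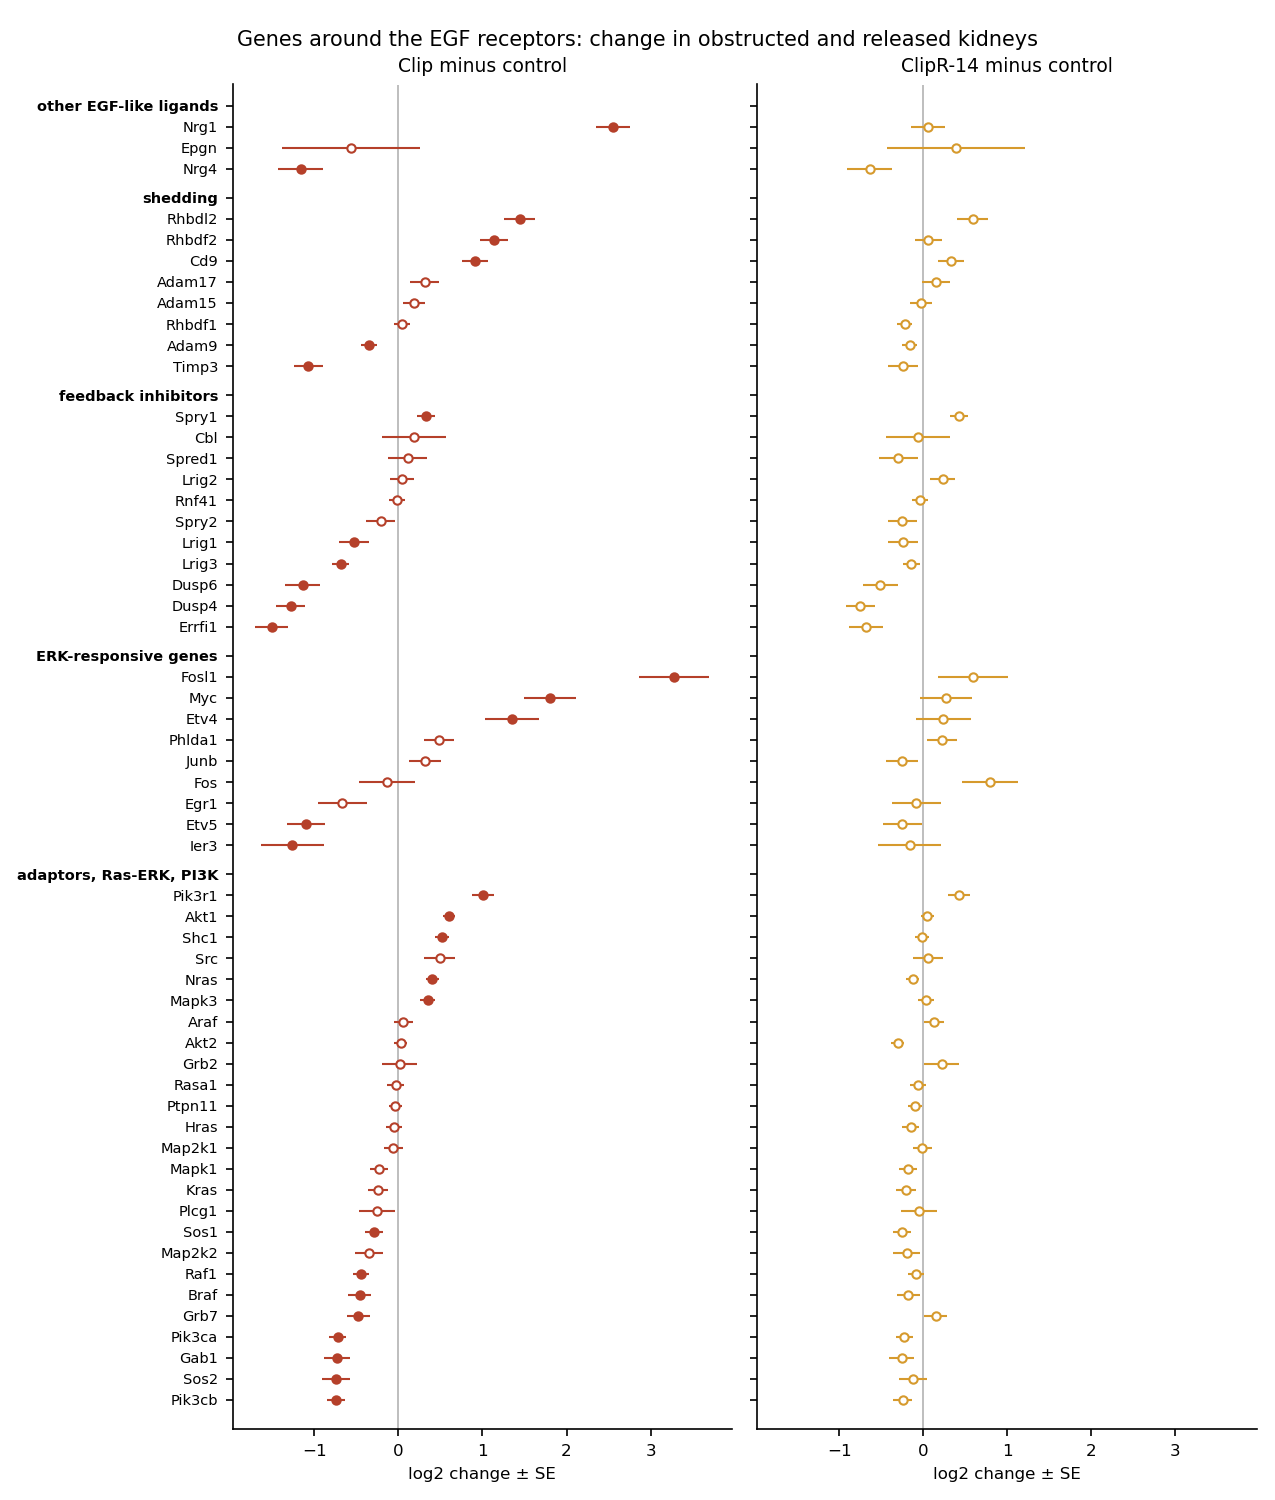
Change on the log2 scale (points, with the standard error of the fit as bars) of other EGF-like ligands, shedding genes, feedback inhibitors, ERK-responsive genes and signalling components in Clip minus control and ClipR-14 minus control; filled points passed the threshold. On the left Nrg1 (2.55) lies far to the right, Fosl1 is drawn at its fitted 3.28 although only a rise of at least 2.91-fold was measured, and Errfi1 (-1.5) farthest to the left, and on the right all points are open and lie between -0.75 and 0.79.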

How the data were processed

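The authors deposited 1 scanner file per array. Its values are intensities per spot, background-subtracted by Agilent Feature Extraction 10.7.3.1 (array design 014868), per the file headers, with no scaling between arrays; other deposited columns hold flags of 0 or 1 (above background, saturated, outlier). A deposited table of log2 values was not used: 8136 of its 8142 filled rows lay within 0.02 (root mean square) of a probe other than the one named, and 0 within that of their own. Its column medians were -0.15 to 0.02; its scale, centring and direction per named probe stay unknown.

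Each array has 45018 spots, 1639 of them controls. Intensities were divided by the 75th percentile of the non-control spots of the array and taken to log2; repeated spots were averaged without outlier flags, and 0 spots were saturated. Accessions were named through RefSeq (26690 of 41174 probes matched). A probe was kept when above background on at least 3 of 9 arrays, and the brightest kept probe stood for a gene. limma 3.58.1 in R 4.3.3 fitted the 3 arms over all 9 arrays, with Benjamini-Hochberg adjustment over 17740 genes. Errors are SE of that fit, n = 3 per arm. Its code was also run on simulated data with independent arrays and few changed genes, a setting unlike these data. Alternatives were normexp (offset 50), quantile and median scaling, slide or replicate number as a block, other filters, the mean of the probes, sham arrays alone as control, fits of 2 arms, and leaving out each array. The files used here hold no mean signal, so normexp was run on the median signal.

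Members and lists were chosen with earlier results of these data known. Named by rule were all members; per list the 3 largest rises and falls called in Clip minus control and the 2 largest in the other comparisons; Nrg1, Nrg4, Epgn, Adam17, Adam10, Errfi1, Lrig1, Umod, Slc12a3 and Trpm6 where tested; and the genes most like each member. Lrig3, Fos, Egr1, Rhbdf1, Sos1, Akt2, Krt5, Hsd3b1, Star and Itgam were added after their values were seen. Deviations from the arm means correlated at 0.161 to 0.281 between arrays on the same slide and at -0.239 to 0.003 between slides. Arrays of the same replicate number correlated at -0.209 to 0.269. Only the untreated array lay on another slide than the first Clip and first ClipR-14 arrays, and both pairs were at -0.209. The numbers were thus not taken to pair the samples. The main fit left out the slide, so its p-values ignore the likeness of arrays on a slide, and slide as a block was an alternative. That block left the counts of members called unchanged in each comparison. Slides were read on 2 scan days, and the slide with the untreated kidney was read on a different day from those with the sham kidneys.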

Additional observations from a re-analysis of the deposited data

How the results depend on the processing

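Egf and Hbegf in Clip minus control, and Egf in ClipR-14 minus Clip, kept direction and call in all 18 distinct alternatives. With normexp the median change of all genes was 0.10 in Clip minus control and -0.10 in ClipR-14 minus Clip, against -0.09 and 0.08 in the chosen setting; it called 0 members higher in Clip and 0 lower in ClipR-14 than in Clip. Quantile normalization called 2 members higher in Clip (Egfr and Erbb2), and so did the fit with no filter (Egfr and Areg), which also called 2 lower in ClipR-14 than in Clip. Its Areg calls rest on levels mostly not well above background. With sham arrays alone as control, which is the same fit as leaving out the untreated array and is counted once, 2 members were higher in ClipR-14 than in Clip (Egf and Btc). The cause was not tested.

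The count over all genes in ClipR-14 minus control, 259 higher and 66 lower, was not firm. It was 0 and 1 with normexp (1341 at an unadjusted p under 0.05), 87 and 27 with quantile normalization, 11 and 1 with no filter, 751 and 412 when slide was a block, 0 and 0 with only the 2 arms (3384 unadjusted; limma), and 122 lower with probes above background on all 9 arrays. With the replicate number as a block it was 160 and 43. Leaving out 1 array gave 2 to 264 higher and 0 to 79 lower, lowest without the second ClipR-14 array. In Clip minus control normexp gave 2519 higher and 3107 lower; in ClipR-14 minus Clip it gave 2270 and 1874, and no filter gave 10515 higher.

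Signs turned only for changes that did not pass, except Etv5 (0.28 in Clip minus control, -0.44 in ClipR-14 minus Clip) and Trpm6 (0.27 in Clip minus control) with normexp. Normexp also turned Btc (0.38, -0.0042 and -0.39 in Clip minus control, ClipR-14 minus control and ClipR-14 minus Clip), Erbb3 (0.32 in Clip minus control, -0.43 in ClipR-14 minus Clip), and in ClipR-14 minus Clip Erbb2 (0.13) and Erbb4 (-0.50). Sham arrays alone turned Btc in Clip minus control (0.22) and Erbb3 in ClipR-14 minus control (0.20). On leaving out 1 array, Btc in Clip minus control ran from -0.40 to 0.22, Erbb3 in ClipR-14 minus control from -0.22 to 0.20 and Erbb2 in ClipR-14 minus Clip from -0.064 to 0.065. Erbb3 in ClipR-14 minus control was 0.034 with the replicate block. The mean of the probes gave -0.080 for Egfr in ClipR-14 minus control and 0.013 for Erbb2 in ClipR-14 minus Clip. Tgfa, Areg, Ereg, Erbb3 and Erbb4 are limited by signal near background.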
